A study of Mus musculus with 15 samples.

Results

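Mouse cells at the ends of 2 culture routes out of the neuromesodermal state were compared 7 d after they had parted. Tbxt-derived cells cultured in FGF/CHIR and sorted as double negative for the reporters (Tbxt 7 d cells, 3 libraries) were set against Sox2-derived cells cultured in FGF alone and sorted for the Sox2 reporter (FGF Sox2+ cells, 2 libraries). These 5 of the 15 libraries of the series were chosen by their labels, and no measured value entered the choice. All came from STR-KI, a single line of mouse embryonic stem cells with the genotype Sox2::mCherry/WT, Tbxt::GFP/WT, so that red fluorescence reports Sox2 and green fluorescence reports Tbxt. Neuromesodermal progenitors (NMPs) were induced with 10 ng/mL FGF2, alone for 48 h and then for 24 h together with 5 µM CHIR, a small molecule that activates WNT signalling by inhibiting the kinase GSK3. NMPs positive for both reporters were kept for 48 h in FGF/CHIR, sorted for a single reporter and replated. The doses after replating were not stated. The source population, the sort gate and the medium differ together between the end points, so their parts in a difference cannot be told apart. The labels do not say whether libraries of a group came from separate cultures, and p-values then measure only the spread between these libraries, which may be technical.

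NMPs of the caudal embryo give rise to spinal cord and to paraxial mesoderm. Sox2, a SoxB1 transcription factor, holds cells in a neural progenitor state, whereas Tbxt (Brachyury), a T-box transcription factor, drives mesoderm formation. Mesenchymal cells have lost the junctions and polarity of an epithelium and secrete a matrix rich in fibrillar collagen, while neural progenitors remain a polarised epithelium held in an undifferentiated state by Notch signalling. Hox genes lie in 4 clusters whose paralogs of low number act towards the head and those of high number towards the tail.

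RNA was captured by oligo-dT priming, and each value is in CPM, counts scaled to the same total in every library, which is not corrected for gene length. Sequencing depth, inferred from the smallest step between values, was 3.43, 5.05 and 3.80 M reads in the Tbxt 7 d libraries (M, 10 to the power of 6). It was 4.71 and 0.799 M reads in the FGF Sox2+ libraries, so that 3 reads correspond to 3.76 CPM in FGF Sox2+ replicate 2 and to less than 0.9 CPM in the other 4 libraries. Such floors cover counting error only. Tbxt 7 d replicate 1 stood apart from its group: 166 genes (1.28% of those tested) were at least 4-fold above both other Tbxt 7 d libraries and 66 (0.510%) at least 4-fold below, against 0 genes in either direction for replicate 2 and for replicate 3. Its correlation across genes with the other Tbxt 7 d libraries was 0.945 and 0.943, against 0.988 between those 2 and 0.951 between the FGF Sox2+ libraries. Results that rest on this library are given below with and without it. Mitochondrial transcripts made up 6.24 to 6.98% of CPM in Tbxt 7 d cells and 4.69 to 4.93% in FGF Sox2+ cells.

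The reporter genes matched the sort. Tbxt 7 d cells were sorted against both reporters and FGF Sox2+ cells for the Sox2 reporter. The outcome for Sox2 was therefore set by the gate, and its test is a check of the sort and not a finding. Sox2 stood at 1.46, 0 and 0.263 CPM in Tbxt 7 d cells, against 390.2 and 388 CPM in FGF Sox2+ cells, a log2 fold change of -8.06 ± 0.30 (SE, Tbxt 7 d over FGF Sox2+, as throughout; limma adjusted p = 4.0e-09). Tbxt was low on both sides, at 0.582, 0.396 and 2.11 CPM in Tbxt 7 d cells and 4.88 and 8.76 CPM in FGF Sox2+ cells, and was lower in Tbxt 7 d cells by this test (adjusted p = 0.000329). The double-negative gate also selected Tbxt 7 d cells against the Tbxt reporter, so this call is not a finding either. Neither gene overlapped between the groups, which holds for 62.6% of all 12943 tested genes, so a lack of overlap sets no gene named here apart. The markers of the end points went the way of the labels: all 7 mesenchymal markers (Twist1, Prrx1, Col1a1, Col1a2, Col3a1, Pdgfra and Pdgfrb) were higher in Tbxt 7 d cells, and all 6 neural markers (Sox1, Sox3, Pax6, Nes, Fabp7 and Hes5) were lower. Of 4 neuronal markers, Dcx, Stmn2 and Elavl3 were lower and Tubb3 did not pass. The level of a transcript in a bulk library depends on both the number of cells that express it and the amount per cell, and fewer cells of a type cannot be told apart from less RNA per cell.

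Across the transcriptome 12943 named genes were tested with limma, fitting the 15 libraries together, and 6161 (47.6%) passed an adjusted p of 0.05. Of these, 2729 (21.1%) were higher and 3432 (26.5%) lower in Tbxt 7 d cells. The median log2 fold change over all tested genes was -0.07. Changes of at least 4-fold were called in 604 genes (4.67%) upward and 628 (4.85%) downward, and changes of at least 16-fold in 105 (0.811%) and 123 (0.950%) genes. The share of called genes is the background against which every gene group below has to be read. The smooth muscle, FGF and ERK feedback, Hedgehog, p53, limb and Hox 5 to 9 lists had 50% of tested genes called. Mitochondrial transcripts had 41.7%. Both shares are near 47.6%, so the number of calls in these lists, apart from their direction, is not a result in itself.

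The 10 largest increases in Tbxt 7 d cells were in Lum, Hoxa11os, Dkk2, Prrx1, Nkd2, Col3a1, Dnm3os, Lrrc17, Sostdc1 and Bcl11b. Lum, which encodes the collagen-binding proteoglycan lumican, had 279, 143 and 179 CPM in Tbxt 7 d cells, against 0 and 1.25 CPM in FGF Sox2+ cells (7.01 ± 0.37, adjusted p = 3.9e-08). Prrx1, a homeobox factor of limb and craniofacial mesenchyme, had 889, 895 and 832 CPM in Tbxt 7 d cells, against 1.91 and 20.03 CPM in FGF Sox2+ cells (6.80 ± 0.62). Both genes were high in each Tbxt 7 d library and near the floor or low in both FGF Sox2+ libraries. Nkd2, an inhibitor of Dishevelled in WNT signalling, had 159, 349.8 and 366 CPM in Tbxt 7 d cells, against 1.70 and 1.25 CPM in FGF Sox2+ cells (6.80 ± 0.33). Sostdc1, a secreted antagonist of BMP and WNT signals, had 61.1, 102 and 121 CPM in Tbxt 7 d cells, against 0.425 and 0 CPM in FGF Sox2+ cells. Bcl11b, a zinc finger transcription factor, had 181, 178 and 204 CPM in Tbxt 7 d cells, against 1.06 and 2.504 CPM in FGF Sox2+ cells (6.13 ± 0.35). These genes were chosen among those without overlap between the groups. Lrrc17 was read at 98.7, 73.8 and 95.9 CPM in Tbxt 7 d cells and at 0 in both FGF Sox2+ libraries.

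The 10 largest decreases were in Fabp7, Sox2, Sox1, Hes5, Pou3f2, Lin28a, Krt8, Pou3f1, Mt2 and Prtg. Sox2 was selected by the sort gate, so its place in this ranking is not a finding. Fabp7, a fatty acid binding protein of radial glia, had 1.16, 0 and 0 CPM in Tbxt 7 d cells, against 287 and 571 CPM in FGF Sox2+ cells (-8.29 ± 0.40, adjusted p = 1.9e-08). Prtg, an immunoglobulin superfamily receptor of the early embryo, had 10.2, 5.74 and 4.21 CPM in Tbxt 7 d cells, against 534 and 518 CPM in FGF Sox2+ cells (-6.17 ± 0.31). Mt2, a metallothionein that binds zinc and copper, had 8.74, 5.74 and 6.32 CPM in Tbxt 7 d cells, against 962 and 434 CPM in FGF Sox2+ cells (-6.37 ± 0.35). The FGF Sox2+ libraries were the higher in each case, with a wide gap to the highest Tbxt 7 d library. Pou3f1 (Oct6), a POU factor of epiblast and neural cells, had 1.75, 0.198 and 0 CPM in Tbxt 7 d cells, against 178 and 104 CPM in FGF Sox2+ cells (-6.52 ± 0.44).

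**Figure D1:**
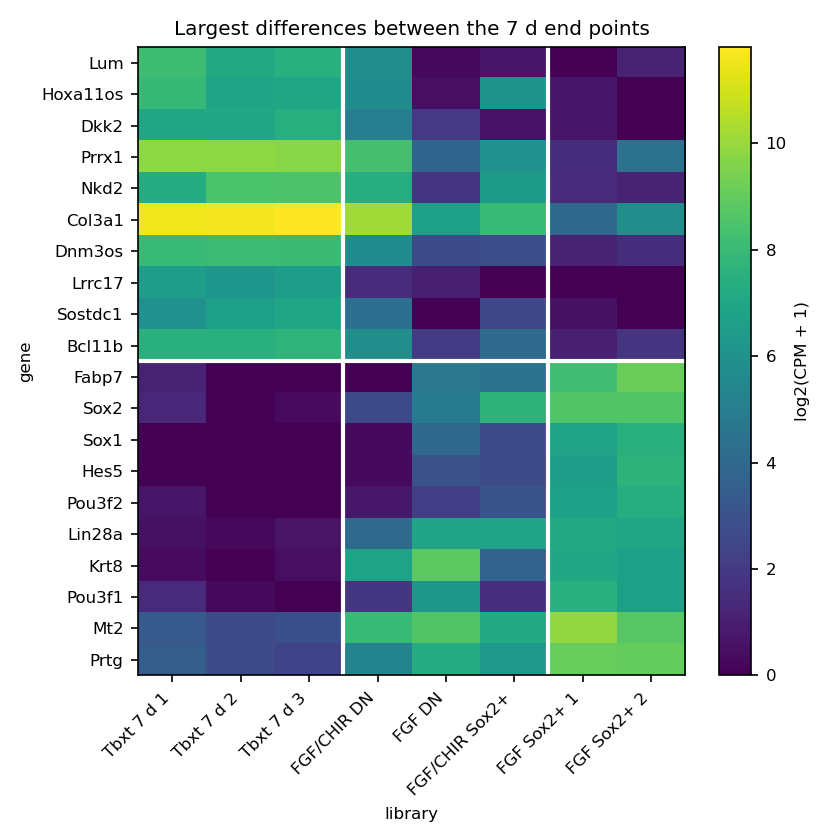
Level as log2(CPM + 1) of the 10 genes with the largest increase (top block) and the 10 with the largest decrease (bottom block) in the 8 libraries at 7 d, with the 3 Tbxt 7 d libraries at the left, 3 single Sox2-derived libraries in the middle and the 2 FGF Sox2+ libraries at the right. The 20 genes were chosen among those in which the Tbxt 7 d and FGF Sox2+ libraries do not overlap. Sox2 was also selected by the sort gate. The double-negative library in FGF has more Krt8 than either FGF Sox2+ library.

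Most of the mesenchymal transcription factors tested rose. Of 19 tested, 12 were higher, 0 lower and 7 did not pass, and the median log2 fold change was 3.21, against -0.07 over all genes. Twist1, a basic helix-loop-helix factor of cranial and limb mesenchyme, had 956, 1645 and 1862 CPM in Tbxt 7 d cells, against 21.9 and 50.1 CPM in FGF Sox2+ cells (5.39 ± 0.37, adjusted p = 8.9e-07). Prrx2, the close relative of Prrx1, had 382, 297 and 325 CPM in Tbxt 7 d cells, against 7.22 and 7.51 CPM in FGF Sox2+ cells (5.32 ± 0.35). Runx2, the regulator of bone formation, had 119.5, 92.3 and 87.6 CPM in Tbxt 7 d cells, against 0.849 and 1.25 CPM in FGF Sox2+ cells (5.61 ± 0.65). In all of them the lowest Tbxt 7 d library lay far above the highest FGF Sox2+ library. Osr1 and Osr2, zinc finger factors of intermediate and limb mesoderm, ranged from 22.8 to 87.7 CPM in Tbxt 7 d cells, and in FGF Sox2+ cells Osr1 had 0.212 and 2.504 CPM while Osr2 was at 0 in both, which makes Osr2 at least 10.1-fold higher.

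Of the factors known to drive epithelial-mesenchymal transition, Snai1 and Snai2 rose and the Zeb genes did not pass. Snai1 had 69.0, 91.9 and 99.02 CPM in Tbxt 7 d cells, against 11.04 and 8.76 CPM in FGF Sox2+ cells (2.998 ± 0.25), and Snai2 had 403, 113 and 113 CPM in Tbxt 7 d cells, against 4.25 and 10.02 CPM in FGF Sox2+ cells (4.51 ± 0.53). Zeb2 had 71.9, 81.2 and 84.9 CPM in Tbxt 7 d cells and 66.7 and 90.1 CPM in FGF Sox2+ cells (0.03 ± 0.23, adjusted p = 0.929), with overlapping ranges. Zeb1 did not pass either (-0.32 ± 0.32). The forkhead genes Foxc1, Foxd1 and Foxf2 had 18.6 to 20.4 CPM in Tbxt 7 d replicate 1 and less than 1 CPM in replicates 2 and 3. Without that replicate 12 factors were higher and 2 lower. Runx1, a factor of blood stem cells and of skeletal mesenchyme, had 14.6, 71.1 and 136 CPM in Tbxt 7 d cells, against 3.61 and 3.76 CPM in FGF Sox2+ cells (3.52 ± 0.66), and its call was lost in a voom fit on inferred reads (adjusted p = 0.112).

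Fibrillar collagens and the enzymes that process them rose in nearly every member. Of 18 tested, 17 were higher, 1 lower and 0 did not pass (median log2 fold change 2.62). Col3a1, the type III collagen of loose connective tissue, had 3023, 3155 and 3599 CPM in Tbxt 7 d cells, against 14.2 and 56.3 CPM in FGF Sox2+ cells (6.78 ± 0.41, adjusted p = 5.4e-07). Col1a2, a chain of type I collagen, had 1053, 369 and 685 CPM in Tbxt 7 d cells, against 19.3 and 108 CPM in FGF Sox2+ cells (3.78 ± 0.61). The partner chain Col1a1 had 1610.5, 210.5 and 476 CPM in Tbxt 7 d cells, against 25.5 and 207 CPM in FGF Sox2+ cells (2.88 ± 0.96, adjusted p = 0.0328). The highest FGF Sox2+ library therefore came close to the lowest Tbxt 7 d library in Col1a1, and lay far below it in Col3a1. Loxl1, which cross-links collagen and elastin, had 80.1, 58.4 and 90.1 CPM in Tbxt 7 d cells, against 2.97 and 2.504 CPM in FGF Sox2+ cells (4.35 ± 0.33), and the procollagen chaperone Serpinh1 (HSP47) had 1819, 2483 and 2525 CPM in Tbxt 7 d cells, against 555 and 627 CPM in FGF Sox2+ cells (1.93 ± 0.16). Col2a1, the type II collagen of cartilage and notochord, was the 1 gene that fell, with 28.2, 27.3 and 23.4 CPM in Tbxt 7 d cells and 70.5 and 96.4 CPM in FGF Sox2+ cells (-1.61 ± 0.24). Col5a2 and Lox passed here but not in a voom fit on inferred reads (adjusted p = 0.113 and 0.12).

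Matricellular and fibre proteins rose in 16 of 19 tested genes, fell in 0 and did not pass in 3 (median log2 fold change 2.69). Dcn, the proteoglycan decorin, had 162, 71.5 and 115 CPM in Tbxt 7 d cells, against 1.06 and 1.25 CPM in FGF Sox2+ cells (5.69 ± 0.32, adjusted p = 6.4e-08). Tnc, the adhesion-modulating glycoprotein tenascin C, had 244, 193 and 205 CPM in Tbxt 7 d cells, against 9.13 and 6.26 CPM in FGF Sox2+ cells (4.64 ± 0.27). Fbln2 and Fbln5, fibulins of elastic fibres, had log2 fold changes of 4.94 ± 0.33 and 5.59 ± 0.40. The groups did not overlap in these 4 genes, as in 62.6% of all tested genes. Ccn1 and Ccn2, secreted targets of YAP, did not pass. In both, Tbxt 7 d replicate 1 was the highest of its group by more than 5-fold, and without it Ccn2 was called lower (-2.51, adjusted p = 0.00601) and the counts were 16 higher and 1 lower. Fewer members of the list were called higher without FGF Sox2+ replicate 1, which leaves a single library in that group. The median log2 fold change was then 2.36.

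Basement membrane genes did not move one way. Of 15 tested, 6 were higher, 4 lower and 5 did not pass (median log2 fold change 0.32), and without FGF Sox2+ replicate 2 these were 7, 2 and 6. Col4a1, the main chain of type IV collagen, had 194, 138 and 145 CPM in Tbxt 7 d cells, against 41.4 and 57.6 CPM in FGF Sox2+ cells (1.66 ± 0.23). Nid1, which links laminin to collagen IV, had 131, 123 and 139.8 CPM in Tbxt 7 d cells, against 15.5 and 26.3 CPM in FGF Sox2+ cells (2.63 ± 0.25). Lama5, the laminin chain of mature epithelia, had 2.04, 0.198 and 0 CPM in Tbxt 7 d cells, against 33.5 and 21.3 CPM in FGF Sox2+ cells (-4.17 ± 0.41). Both Col4a1 and Nid1 were higher, and Lama5 lower, in every Tbxt 7 d library. Lama2, the laminin chain of muscle and mesenchyme, had 15.6, 6.04 and 9.35 CPM in Tbxt 7 d cells and 0 in both FGF Sox2+ libraries, at least 2.75-fold higher. Lamc1, the chain shared by most laminins, fell, with 48.9, 28.9 and 28.7 CPM in Tbxt 7 d cells and 51.0 and 88.9 CPM in FGF Sox2+ cells (-0.95 ± 0.26).

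Smooth muscle contractile genes gave 6 higher, 2 lower and 8 not past of 16 tested (median log2 fold change 0.28), and the counts depended on single libraries. Without Tbxt 7 d replicate 1 they were 5 higher and 6 lower, without FGF Sox2+ replicate 1 they were 5 and 1, and without FGF Sox2+ replicate 2 they were 4 and 2. Acta2, smooth muscle actin, had 132, 7.57 and 12.2 CPM in Tbxt 7 d cells and 35.7 and 15.3 CPM in FGF Sox2+ cells (0.01 ± 0.98, adjusted p = 0.993). Tagln, an actin-binding protein of smooth muscle, had 70.2, 0.594 and 2.63 CPM in Tbxt 7 d cells and 15.4 and 12.5 CPM in FGF Sox2+ cells. In both genes Tbxt 7 d replicate 1 was above, and replicates 2 and 3 below, the 2 FGF Sox2+ libraries. Among those that rose were Myh10 (nonmuscle myosin IIB), with 322, 242 and 296 CPM in Tbxt 7 d cells, against 113 and 139.6 CPM in FGF Sox2+ cells (1.18 ± 0.18), and the actin-binding protein Cald1 (caldesmon), with 757, 320.3 and 300.0 CPM in Tbxt 7 d cells, against 135 and 114 CPM in FGF Sox2+ cells (1.74 ± 0.32).

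Epithelial junction and polarity genes fell. Of 18 tested, 0 were higher, 16 lower and 2 did not pass. The median log2 fold change was -3.32, and -3.36 with the 3 members at 0 in Tbxt 7 d cells set to their bound. Cldn4, a tight junction claudin, had 0, 0 and 0.263 CPM in Tbxt 7 d cells, against 59.0 and 22.5 CPM in FGF Sox2+ cells (-5.12 ± 0.42, adjusted p = 1.1e-06). Krt8, a keratin of simple epithelia, had 0.291, 0 and 0.395 CPM in Tbxt 7 d cells, against 132 and 102 CPM in FGF Sox2+ cells (-6.59 ± 0.24, adjusted p = 3.0e-09). Epcam, an epithelial adhesion molecule, had 1.46, 2.97 and 2.90 CPM in Tbxt 7 d cells, against 147 and 67.6 CPM in FGF Sox2+ cells (-4.90 ± 0.30). These genes stayed below 3 CPM in every Tbxt 7 d library. Cldn3 was at 0 in all 3 Tbxt 7 d libraries and at 114 and 38.8 CPM in FGF Sox2+ cells, at least 87.6-fold lower, and Cldn6 was likewise at 0 and at 58.2 and 27.5 CPM, at least 49.1-fold lower. Esrp1, which controls epithelial splicing, was at 0 in Tbxt 7 d cells and at 13.4 and 11.3 CPM in FGF Sox2+ cells, at least 14.1-fold lower. The polarity gene Crb2 of neuroepithelium had 0.874, 0.594 and 0.527 CPM in Tbxt 7 d cells, against 21.4 and 30.0 CPM in FGF Sox2+ cells (-3.99 ± 0.24), whereas Pard3, another polarity gene, did not pass (0.19 ± 0.19). The summed level of 12 markers of pluripotent cells was 29.1 to 103 CPM in Tbxt 7 d cells, mostly from Klf4, and 82.9 to 278 CPM in FGF Sox2+ cells. Both this sum and that of the 18 epithelial genes were higher in FGF Sox2+ replicate 1 (278 and 962 CPM) than in replicate 2 (82.9 and 588 CPM). The part of pluripotent cells in this result was not tested.

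Snail and Zeb proteins are known to repress epithelial genes through E-box sequences. The promoters were searched for the E-box letters CAGGTG, which read CACCTG on the other strand. The search covered 250 bases before to 50 after each start in the RefSeq promoter table (GRCm38.p6, whereas the authors aligned to GRCm39), and it was made after the values had been seen. The letters stood in 11 of 19 promoter windows of the 13 matched epithelial genes that fell, in 20.2% of all 32851 windows and in 17.0% of the windows of tested genes. Windows of a gene with several starts were counted separately, and those of Ocln overlap and share a match. They stood in 27.6% of the windows of genes that fell at least 4-fold and in 13.5% of those that rose at least 4-fold. Median GC content was 61.0% in the epithelial windows, 61.3% in the windows of tested genes and 52.7% over all windows. A match is a description of the letters, not a binding site. Stretches of 5 of these promoters are shown as examples that carry the letters, each 5′ to 3′ on the strand of its gene and with the E-box in capitals. Cldn3, Krt18, Ocln and Prkcz, which also fell, carry the letters too and are not shown.
Cldn4 (chr5:134946885-134947034, minus strand): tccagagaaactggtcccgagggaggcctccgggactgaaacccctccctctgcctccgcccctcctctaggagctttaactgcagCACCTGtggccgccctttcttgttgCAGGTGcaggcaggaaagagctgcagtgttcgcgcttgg
Cldn6 (chr17:23679215-23679364, plus strand): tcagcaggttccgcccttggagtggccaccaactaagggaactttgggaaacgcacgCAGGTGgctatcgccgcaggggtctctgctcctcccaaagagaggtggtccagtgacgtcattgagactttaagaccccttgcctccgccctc
Cldn7 (chr11:69965271-69965420, plus strand): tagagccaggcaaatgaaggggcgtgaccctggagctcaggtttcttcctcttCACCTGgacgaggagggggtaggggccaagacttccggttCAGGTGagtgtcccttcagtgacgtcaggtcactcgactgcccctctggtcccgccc
Krt8 (chr15:102004343-102004492, minus strand): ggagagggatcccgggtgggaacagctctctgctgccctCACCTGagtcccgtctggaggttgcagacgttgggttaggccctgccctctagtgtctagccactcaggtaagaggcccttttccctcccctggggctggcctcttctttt
Epcam (chr17:87635779-87635978, plus strand): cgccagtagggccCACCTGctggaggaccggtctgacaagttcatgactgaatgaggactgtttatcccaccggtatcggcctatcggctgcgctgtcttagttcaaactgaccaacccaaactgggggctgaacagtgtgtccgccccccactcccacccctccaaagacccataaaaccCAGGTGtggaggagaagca

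Cadherins moved in both directions. Cdh1 (E-cadherin), the adhesion molecule of epithelia, had 0, 0.198 and 0.263 CPM in Tbxt 7 d cells, against 91.5 and 41.3 CPM in FGF Sox2+ cells (-5.77 ± 0.34, adjusted p = 7.9e-08). Cdh11, the cadherin of mesenchyme and bone, had 1211, 886 and 888 CPM in Tbxt 7 d cells, against 19.7 and 47.6 CPM in FGF Sox2+ cells (4.96 ± 0.32). Cdh2 (N-cadherin), which neural and mesenchymal cells both use, had 102, 87.8 and 97.4 CPM in Tbxt 7 d cells and 102 and 123 CPM in FGF Sox2+ cells (-0.23 ± 0.19, adjusted p = 0.338). Cdh1 and Cdh11 were separated between the groups in opposite directions, and the range of Cdh2 overlapped. Of 7 cadherins tested, 3 were higher and 2 lower, and without Tbxt 7 d replicate 1 the counts were 3 and 3, with Cdh13 called lower.

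Neural progenitor transcription factors fell in 9 of 14 tested genes, rose in 2 and did not pass in 3. The median log2 fold change was -4.72, and -4.82 with the 3 genes at 0 set to their bound. Sox1, a SoxB1 factor confined to neural cells, was at 0 in all Tbxt 7 d libraries and at 112 and 179 CPM in FGF Sox2+ cells, at least 167-fold lower (adjusted p = 1.5e-08). Sox3, the third SoxB1 gene, had 1.16, 2.57 and 1.84 CPM in Tbxt 7 d cells, against 128 and 109 CPM in FGF Sox2+ cells (-5.41 ± 0.28). Pax6, a factor of ventral and intermediate spinal cord, had 1.75, 0 and 0.263 CPM in Tbxt 7 d cells, against 95.3 and 68.9 CPM in FGF Sox2+ cells (-5.76 ± 0.41). All 3 genes were low or absent in each Tbxt 7 d library. Msx3, a homeobox factor of dorsal spinal cord, was at 0 in Tbxt 7 d cells and at 32.1 and 72.6 CPM in FGF Sox2+ cells, at least 59.9-fold lower, and Pax7 was at 0 and at 18.05 and 32.6 CPM, at least 29.0-fold lower. Pax3, which dorsal neural tube and somites share, had 18.3, 0 and 0.79 CPM in Tbxt 7 d cells, against 72.4 and 131 CPM in FGF Sox2+ cells (-4.92 ± 0.99), with most of its Tbxt 7 d reads in replicate 1. The ventral gene Olig2 did not exceed 1.25 CPM in any of the 5 libraries.

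Members that rose against the direction of the list were Zic1 and Lhx2, both of which are also expressed in mesoderm. Zic1, a zinc finger factor of dorsal neural tube and somites, had 509, 477 and 457 CPM in Tbxt 7 d cells, against 62.2 and 170.3 CPM in FGF Sox2+ cells (2.21 ± 0.36). Lhx2, a LIM factor of forebrain and limb bud, had 54.4, 102 and 87.4 CPM in Tbxt 7 d cells, against 0.849 and 8.76 CPM in FGF Sox2+ cells (4.23 ± 0.56). Both genes were separated between the groups. Irx5 had 38.4, 154 and 230.0 CPM in Tbxt 7 d cells and 80.7 and 72.6 CPM in FGF Sox2+ cells and did not pass, and it was called higher without Tbxt 7 d replicate 1 (1.29, adjusted p = 0.00135). Among 13 genes of the neural progenitor state, 9 were lower, 1 higher and 3 not past (median log2 fold change -2.68). Hes5, a Notch-driven repressor of neuronal differentiation, was at 0 in Tbxt 7 d cells and at 94.5 and 198 CPM in FGF Sox2+ cells, at least 167-fold lower, and Sox21 had a log2 fold change of -5.83 ± 0.37. The 1 member that rose was Vcan (2.33 ± 0.30), the matrix proteoglycan versican, also a member of the matricellular list. Nes, the intermediate filament nestin, had 27.4, 2.18 and 3.42 CPM in Tbxt 7 d cells, against 41.0 and 61.4 CPM in FGF Sox2+ cells (-2.80 ± 0.74), and lost its call without FGF Sox2+ replicate 2 (adjusted p = 0.0646).

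Neuronal genes fell. Of 8 proneural and neuronal transcription factors tested, 7 were lower, 0 higher and 1 not past (median log2 fold change -3.05), and 12 of the 20 listed were below the filter. Neurog2, a proneural factor, was at 0 in Tbxt 7 d cells and at 4.67 and 37.6 CPM in FGF Sox2+ cells (log2 fold change -3.89, and -2.50 without FGF Sox2+ replicate 2). By the mean of the FGF Sox2+ libraries it was at least 24.2-fold lower, but that mean rests mostly on replicate 2. All 8 had a higher CPM in FGF Sox2+ replicate 2, the shallow library, than in replicate 1. Without replicate 2 the median log2 fold change of the list was -2.03. Atoh1, a factor of dorsal interneuron progenitors below the filter, was at 0 in Tbxt 7 d cells and at 1.06 and 40.1 CPM in FGF Sox2+ cells. Of 15 neuronal cytoskeleton and RNA-binding genes, 11 were lower, 0 higher and 4 not past (median log2 fold change -3.14). Elavl3 (HuC), an RNA-binding protein of young neurons, had 0, 0.198 and 0 CPM in Tbxt 7 d cells, against 26.96 and 101 CPM in FGF Sox2+ cells (-5.66 ± 0.48). Stmn2, a microtubule regulator of axons, had 5.82, 10.1 and 14.5 CPM in Tbxt 7 d cells, against 61.1 and 138 CPM in FGF Sox2+ cells (-3.14 ± 0.35). Tubb3, neuronal tubulin, had 23.9, 134 and 91.3 CPM in Tbxt 7 d cells and 57.5 and 263 CPM in FGF Sox2+ cells and did not pass (-0.88 ± 0.80, adjusted p = 0.399).

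**Figure D2:**
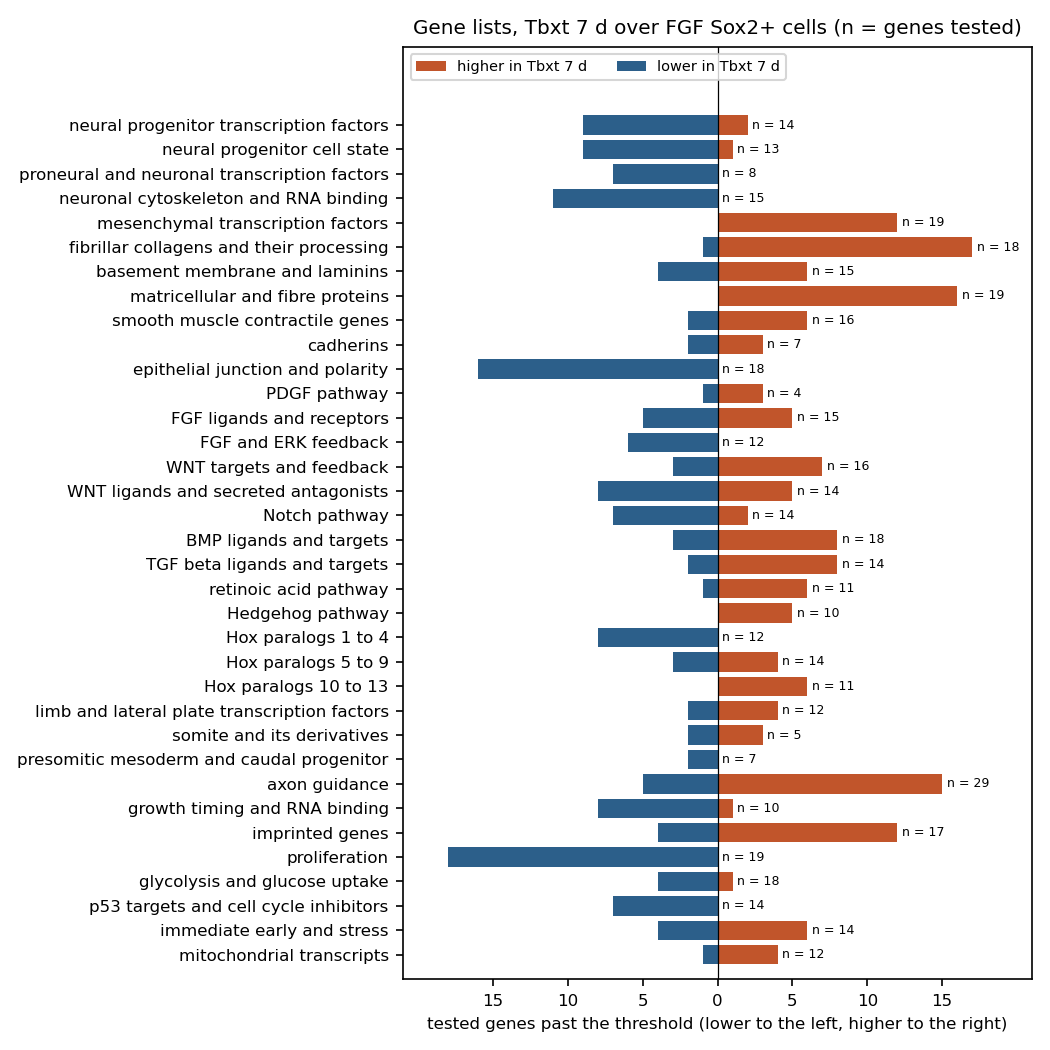
Number of tested genes of each list that were higher (bars to the right) or lower (bars to the left) in Tbxt 7 d than in FGF Sox2+ cells at an adjusted p of 0.05, with the number tested as n. Fibrillar collagens (17 of 18 higher), epithelial genes (16 of 18 lower) and proliferation genes (18 of 19 lower) are examples of one-sided lists.

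Hox genes of low paralog number fell and several of high number rose. Of 12 tested genes of paralog groups 1 to 4, 0 were higher, 8 lower and 4 not past (median log2 fold change -1.55). Of 14 genes of groups 5 to 9, 4 were higher, 3 lower and 7 not past (0.26). Of 11 genes of groups 10 to 13, 6 were higher, 0 lower and 5 not past (3.23). Hoxb2, which patterns hindbrain segments, had 8.74, 3.76 and 5.40 CPM in Tbxt 7 d cells, against 85.6 and 168 CPM in FGF Sox2+ cells (-4.18 ± 0.29). Hoxa2 had 9.90, 5.35 and 5.93 CPM in Tbxt 7 d cells, against 52.4 and 82.6 CPM in FGF Sox2+ cells (-3.10 ± 0.28). Hoxa10, a gene of the lumbar level and limb, had 277, 264 and 240.2 CPM in Tbxt 7 d cells, against 6.37 and 15.02 CPM in FGF Sox2+ cells (4.59 ± 0.25, adjusted p = 4.7e-08). The low-number genes were lower and Hoxa10 higher in every Tbxt 7 d library than in either FGF Sox2+ library.

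Further genes of the A cluster rose. Hoxa5 had 159.9, 162 and 122 CPM in Tbxt 7 d cells, against 30.6 and 30.0 CPM in FGF Sox2+ cells (2.24 ± 0.20), and Hoxa9 had 130.2, 206 and 157 CPM in Tbxt 7 d cells, against 21.2 and 27.5 CPM in FGF Sox2+ cells (2.69 ± 0.20). Hoxa11, which specifies the forearm, had 35.7, 92.3 and 87.0 CPM in Tbxt 7 d cells, against 0.425 and 0 CPM in FGF Sox2+ cells (5.81 ± 0.39). Hoxa11os, transcribed antisense to Hoxa11, had 242, 119 and 122 CPM in Tbxt 7 d cells, against 0.637 and 0 CPM in FGF Sox2+ cells (6.90 ± 0.34), and because the strand used in counting is not stated, reads of this pair cannot be told apart. All 4 genes were separated between the groups, against 62.6% over all tested genes. In the D cluster Hoxd11 had 239.7, 39.7 and 64.8 CPM in Tbxt 7 d cells, against 1.06 and 0 CPM in FGF Sox2+ cells (5.91 ± 0.58), and Hoxd13 had 229, 4.55 and 10.3 CPM in Tbxt 7 d cells, against 0.637 and 2.504 CPM in FGF Sox2+ cells (3.35 ± 1.25, adjusted p = 0.0525). Replicate 1 held most of the Tbxt 7 d level of Hoxd13, and without it the gene was called higher with a smaller change (1.72, adjusted p = 0.00309). Of 8 genes of the C cluster tested, 1 was higher and 1 lower. Hoxc8 did not pass (0.10 ± 0.22), and Hoxc10 was called higher (1.38 ± 0.37) but not without FGF Sox2+ replicate 1 (adjusted p = 0.125). In a voom fit on inferred reads Hoxa13, Hoxd9, Hoxd10 and Hoxd11 did not pass (adjusted p = 0.242, 0.103, 0.058 and 0.0833).

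Single libraries moved the Hox counts in part. With Tbxt 7 d replicate 1 left out, groups 10 to 13 had 7 higher and 1 lower with a median of 1.72, and groups 5 to 9 had 5 higher and 2 lower. In groups 5 to 9, the 3 genes called lower (Hoxb6, Hoxb7 and Hoxb8) all lost their calls without FGF Sox2+ replicate 1, which left 4 higher and 0 lower. Leaving out FGF Sox2+ replicate 2 gave 3 higher and 2 lower there, and leaving out Tbxt 7 d replicate 2 gave 4 and 2. In groups 1 to 4, leaving out FGF Sox2+ replicate 1 gave 1 higher and 8 lower.

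**Figure D3:**
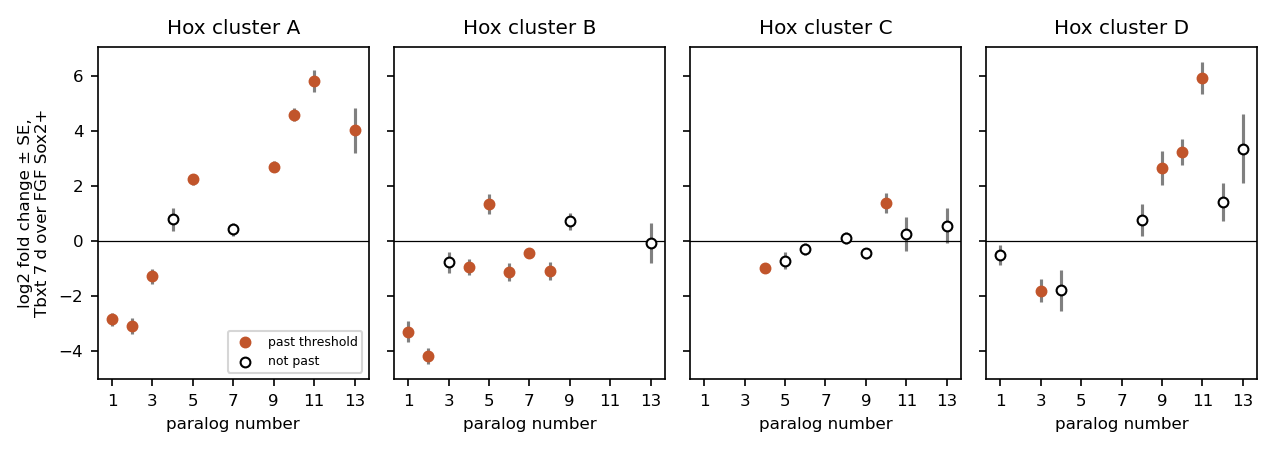
Log2 fold change (Tbxt 7 d over FGF Sox2+, ± SE) of the tested Hox genes against paralog number, in a panel for each cluster, with filled points for genes past an adjusted p of 0.05 and open points for the others. In clusters A and D the values run from below 0 at low paralog numbers to above 3 for Hoxa10, Hoxa11, Hoxd10 and Hoxd11, while no value of cluster C exceeds 1.38.

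Position along the body and limb was marked by further factors. Of 12 limb and lateral plate transcription factors tested, 4 were higher, 2 lower and 6 not past (median log2 fold change 0.36), and without FGF Sox2+ replicate 1 the counts were 4 higher and 4 lower. Shox2, a factor of the proximal limb, had 85.0, 295 and 329 CPM in Tbxt 7 d cells, against 1.49 and 3.76 CPM in FGF Sox2+ cells (5.89 ± 0.49, adjusted p = 1.4e-06). Hand2, which sets up the posterior limb bud, had 44.0, 75.8 and 71.6 CPM in Tbxt 7 d cells, against 0.637 and 0 CPM in FGF Sox2+ cells (5.62 ± 0.34). Hand1, its relative in extraembryonic and lateral mesoderm, had 0.874, 0.198 and 0 CPM in Tbxt 7 d cells, against 74.9 and 26.3 CPM in FGF Sox2+ cells (-5.12 ± 0.43). The Hand genes were thus separated in opposite directions. Lmx1b, which specifies the dorsal limb, had a log2 fold change of 3.23 ± 0.34 and Meis1 of -1.72 ± 0.22. The limb identity genes Tbx4 and Tbx5 were below the filter, with at most 2.62 CPM in any of the 5 libraries. Tbx2 passed here (6.12 ± 0.61) but not in a voom fit on inferred reads (adjusted p = 0.0775).

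Segmental mesoderm genes were mostly below the filter. Of 14 somite genes 5 were tested, with 3 higher and 2 lower, and Myf6, Myod1, Myog, Nkx3-2 and Tbx22 were at 0 in all 5 libraries. Pax9, a sclerotome factor, had 18.3, 13.3 and 16.1 CPM in Tbxt 7 d cells, against 2.97 and 2.504 CPM in FGF Sox2+ cells (2.17 ± 0.28). Tcf15 (paraxis), which keeps somites epithelial, had 2.62, 0 and 0 CPM in Tbxt 7 d cells, against 27.4 and 26.3 CPM in FGF Sox2+ cells (-4.18 ± 0.47). Pax9 was higher and Tcf15 lower in every Tbxt 7 d library. Mkx was called higher (1.28 ± 0.44) but not without either FGF Sox2+ library (adjusted p = 0.122 without replicate 1 and 0.102 without replicate 2). Tbx6, the factor of presomitic mesoderm, was below 0.3 CPM in each library, and Msgn1 was at 0. Of 7 presomitic and caudal progenitor genes tested, 0 were higher, 2 lower and 5 not past. Nkx1-2, a factor of caudal progenitors, had 1.75, 0.396 and 0.263 CPM in Tbxt 7 d cells, against 36.1 and 53.8 CPM in FGF Sox2+ cells (-4.74 ± 0.27). Without FGF Sox2+ replicate 2 these counts were 1 and 4, and without Tbxt 7 d replicate 1 they were 0 and 3.

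PDGF receptors and ligands were split between the end points. Pdgfra, the receptor that marks early mesenchyme, had 131, 86.1 and 139.8 CPM in Tbxt 7 d cells, against 2.34 and 6.26 CPM in FGF Sox2+ cells (4.58 ± 0.35, adjusted p = 6.0e-07). Pdgfrb, the receptor of perivascular and stromal cells, had 143, 122 and 142 CPM in Tbxt 7 d cells, against 7.22 and 3.76 CPM in FGF Sox2+ cells (4.45 ± 0.27). The ligand Pdgfa had 17.2, 10.9 and 9.74 CPM in Tbxt 7 d cells, against 119.9 and 83.9 CPM in FGF Sox2+ cells (-2.94 ± 0.22). Both receptors were higher and this ligand lower in every Tbxt 7 d library, while the ligand Pdgfc was higher (1.92 ± 0.26). Among 15 FGF ligands and receptors, 5 were higher, 5 lower and 5 not past. Fgf15, a ligand of early neural tube, was at 0 in Tbxt 7 d cells and at 34.2 and 46.3 CPM in FGF Sox2+ cells, at least 46.1-fold lower. Fgf10, the mesenchymal ligand of limb and lung buds, had 17.5, 4.75 and 5.14 CPM in Tbxt 7 d cells, against 0.212 and 0 CPM in FGF Sox2+ cells (2.98 ± 0.47). The main receptor Fgfr1 had 264, 251 and 301 CPM in Tbxt 7 d cells, against 164 and 165 CPM in FGF Sox2+ cells (0.72 ± 0.17), and Fgfr3, the receptor of neural progenitors and cartilage, had 12.2, 3.76 and 1.05 CPM in Tbxt 7 d cells, against 28.2 and 28.8 CPM in FGF Sox2+ cells (-2.55 ± 0.58).

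Feedback genes of FGF and ERK signalling were 0 higher, 6 lower and 6 not past of 12 tested (median log2 fold change -1.45), and in several of them Tbxt 7 d replicate 1 stood apart. Dusp6, the ERK phosphatase, had 104, 5.94 and 4.74 CPM in Tbxt 7 d cells and 113 and 133 CPM in FGF Sox2+ cells (-2.94 ± 1.01, adjusted p = 0.0381). Spry1, an inhibitor of receptor tyrosine kinases, had 47.2, 1.58 and 1.05 CPM in Tbxt 7 d cells and 32.6 and 25.04 CPM in FGF Sox2+ cells (-2.22 ± 1.10, adjusted p = 0.128). Etv5, an ETS factor induced by FGF, had 13.8, 1.48 and 2.11 CPM in Tbxt 7 d cells and 35.6 and 30.7 CPM in FGF Sox2+ cells (-2.81 ± 0.59). Replicates 2 and 3 were far below both FGF Sox2+ libraries in all 3 genes, while replicate 1 lay close to them in Dusp6, above them in Spry1 and below them in Etv5. Without replicate 1 the list had 10 lower and 2 not past, with a median of -2.03. The number of lower genes was 4 without any of FGF Sox2+ replicate 1, Tbxt 7 d replicate 2 or Tbxt 7 d replicate 3, and 3 without FGF Sox2+ replicate 2. Dusp6 lost its call in each of those 4 fits (adjusted p = 0.0937 to 0.115).

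WNT targets and feedback genes were 7 higher, 3 lower and 6 not past of 16 tested (median log2 fold change 0.79). Apcdd1, a membrane inhibitor of WNT receptors, had 63.5, 479.7 and 509 CPM in Tbxt 7 d cells, against 12.95 and 17.5 CPM in FGF Sox2+ cells (3.96 ± 0.74, adjusted p = 0.00193). Axin2, the negative feedback scaffold of β-catenin, had 93.5, 556 and 546 CPM in Tbxt 7 d cells and 45.2 and 100.2 CPM in FGF Sox2+ cells (2.16 ± 0.69, adjusted p = 0.0277). Notum, a secreted enzyme that inactivates WNT ligands, had 6.11, 211 and 189.6 CPM in Tbxt 7 d cells and 5.52 and 5.01 CPM in FGF Sox2+ cells (3.40 ± 1.19, adjusted p = 0.0406). For Axin2 and Notum, Tbxt 7 d replicate 1 lay within or close to the FGF Sox2+ range, and both calls were lost without FGF Sox2+ replicate 1 (adjusted p = 0.161 and 0.104), Tbxt 7 d replicate 2 (0.0700 and 0.111) or Tbxt 7 d replicate 3 (0.0694 and 0.119). Notum was also lost without FGF Sox2+ replicate 2 (adjusted p = 0.113). With Tbxt 7 d replicate 1 left out, Apcdd1, Axin2 and Notum were all called higher by limma, with larger changes. Their log2 fold changes were then 4.94 (adjusted p = 4.8e-10), 3.01 (adjusted p = 6.8e-06) and 5.01 (adjusted p = 1.0e-10). Lef1, a transcription factor of the pathway, had 115, 123 and 152 CPM in Tbxt 7 d cells, against 55.4 and 71.4 CPM in FGF Sox2+ cells (1.03 ± 0.16). The counts were 3 higher and 2 lower without FGF Sox2+ replicate 1 and 5 and 2 without Tbxt 7 d replicate 2.

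The members of this list that fell, Cdx2, Cdx4 and Sp8, are known from caudal progenitors. Cdx2, a homeobox gene that maintains posterior growth, had 1.46, 0.396 and 0.527 CPM in Tbxt 7 d cells, against 103 and 90.1 CPM in FGF Sox2+ cells (-5.81 ± 0.20, adjusted p = 1.8e-09). Sp8, a zinc finger gene of caudal epiblast and neural tissue, had 0.291, 0 and 1.05 CPM in Tbxt 7 d cells, against 28.03 and 21.3 CPM in FGF Sox2+ cells (-4.20 ± 0.28). Cdx4 was low on both sides, with 0.874, 0 and 0.263 CPM in Tbxt 7 d cells and 3.40 and 1.25 CPM in FGF Sox2+ cells. All 3 genes were lower in each Tbxt 7 d library than in either FGF Sox2+ library. Among WNT ligands and secreted antagonists, 5 of 14 were higher, 8 lower and 1 not past (median log2 fold change -1.37, and -1.09 with the 2 members at 0 set to their bound). Dkk2, an antagonist of WNT co-receptors, had 128, 132 and 174 CPM in Tbxt 7 d cells, against 0.637 and 0 CPM in FGF Sox2+ cells (6.82 ± 0.32, adjusted p = 1.6e-08). Wnt7b, a ligand of epithelia and neural tissue, had 0.291, 0.396 and 0.263 CPM in Tbxt 7 d cells, against 18.05 and 26.3 CPM in FGF Sox2+ cells (-4.12 ± 0.32), and Wnt5b, a noncanonical ligand, had 16.01, 16.6 and 21.6 CPM in Tbxt 7 d cells, against 5.10 and 1.25 CPM in FGF Sox2+ cells (2.35 ± 0.31). Wif1, which binds WNT proteins, had 12.2, 159 and 136 CPM in Tbxt 7 d cells, against 0.425 and 0 CPM in FGF Sox2+ cells (5.80 ± 0.83), and its call was lost in a voom fit on inferred reads (adjusted p = 0.236).

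**Figure D4:**
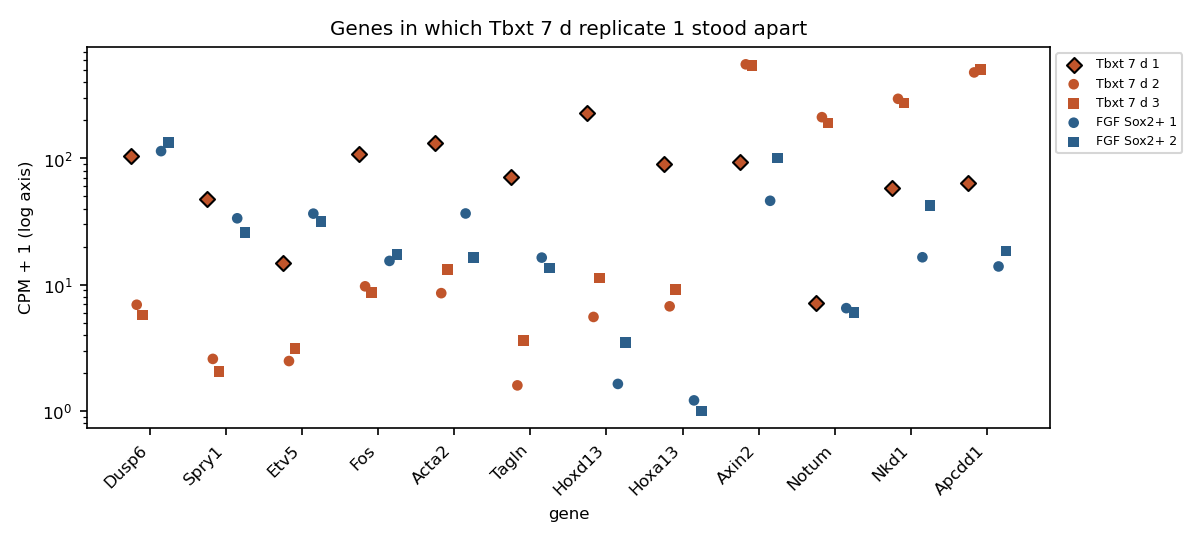
CPM + 1 on a log axis of 12 genes in the 3 Tbxt 7 d libraries (diamonds for replicate 1, circles for replicate 2, squares for replicate 3) and the 2 FGF Sox2+ libraries (blue circles for replicate 1, blue squares for replicate 2). Tbxt 7 d replicate 1 lies above replicates 2 and 3 for the ERK feedback, contractile, Fos and Hox13 genes and below them for the WNT feedback genes Axin2, Notum, Nkd1 and Apcdd1. These genes were chosen after their values had been seen.

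Notch pathway genes fell in 7 of 14 tested genes, rose in 2 and did not pass in 5 (median log2 fold change -0.42). The ligand Dll1 had 2.33, 0.396 and 0.263 CPM in Tbxt 7 d cells, against 35.7 and 78.9 CPM in FGF Sox2+ cells (-4.91 ± 0.44, adjusted p = 3.3e-06). The receptor Notch1 had 13.4, 10.1 and 9.74 CPM in Tbxt 7 d cells, against 57.3 and 91.4 CPM in FGF Sox2+ cells (-2.62 ± 0.25). Nrarp, a feedback inhibitor induced by Notch, had 0, 0.198 and 1.05 CPM in Tbxt 7 d cells, against 36.1 and 62.6 CPM in FGF Sox2+ cells (-5.17 ± 0.34). Ligand, receptor and target were each lower in every Tbxt 7 d library. Notch3, the receptor of mural cells, was higher (0.93 ± 0.20), and Hes1, a repressor that many pathways induce, had 328, 86.7 and 100.3 CPM in Tbxt 7 d cells and 134 and 128 CPM in FGF Sox2+ cells and did not pass (0.12 ± 0.45). Hes1 was called lower when Tbxt 7 d replicate 1 was left out (-0.48, adjusted p = 0.0282), and the list then had 3 higher and 8 lower. Without FGF Sox2+ replicate 1 it had 1 higher and 7 lower, and without Tbxt 7 d replicate 2 it had 3 and 7.

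BMP genes were 8 higher, 3 lower and 7 not past of 18 tested (median log2 fold change 0.97). The ligand Bmp2 had 135, 67.9 and 88.0 CPM in Tbxt 7 d cells, against 2.12 and 1.25 CPM in FGF Sox2+ cells (5.15 ± 0.35, adjusted p = 3.0e-07). Bmp4 had 143, 148 and 82.7 CPM in Tbxt 7 d cells, against 19.3 and 14.4 CPM in FGF Sox2+ cells (2.78 ± 0.31). Id1, a direct target that blocks basic helix-loop-helix factors, had 643, 783 and 763 CPM in Tbxt 7 d cells, against 90.4 and 194 CPM in FGF Sox2+ cells (2.45 ± 0.26). The ligands and this target were higher in every Tbxt 7 d library. Msx1, a target in limb and dorsal neural tube, had 605, 107 and 65.3 CPM in Tbxt 7 d cells and 48.6 and 145 CPM in FGF Sox2+ cells and did not pass (0.94 ± 0.79). The antagonist Grem1 was higher (2.49 ± 0.54) and the ligand Bmp6 lower (-2.13 ± 0.38). Without Tbxt 7 d replicate 1 the list had 7 higher and 5 lower, and without FGF Sox2+ replicate 2 it had 5 and 2.

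TGF beta genes were 8 higher, 2 lower and 4 not past of 14 tested (median log2 fold change 1.77, and 1.46 with Inhbb, at 0 in FGF Sox2+ cells, set to its bound). The ligand Tgfb2 had 178, 917 and 1077 CPM in Tbxt 7 d cells, against 42.9 and 46.3 CPM in FGF Sox2+ cells (3.62 ± 0.62, adjusted p = 0.0011). The receptor Tgfbr2 had 49.5, 30.1 and 39.5 CPM in Tbxt 7 d cells, against 6.37 and 7.51 CPM in FGF Sox2+ cells (2.33 ± 0.22), while Tgfbr1 had 68.7, 64.3 and 61.6 CPM in Tbxt 7 d cells and 73.5 and 88.9 CPM in FGF Sox2+ cells and did not pass. Ligand and type II receptor were thus higher without a called difference in the type I receptor. Fstl1, a secreted glycoprotein of mesenchyme, had 1049, 778 and 918 CPM in Tbxt 7 d cells, against 144 and 172 CPM in FGF Sox2+ cells (2.52 ± 0.16, adjusted p = 1.2e-07). Without FGF Sox2+ replicate 1 the list had 7 higher and 3 lower.

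Retinoic acid genes were 6 higher, 1 lower and 4 not past of 11 tested (median log2 fold change 0.68). Rarg, a retinoic acid receptor, had 52.4, 76.6 and 106 CPM in Tbxt 7 d cells, against 9.98 and 6.26 CPM in FGF Sox2+ cells (3.09 ± 0.37, adjusted p = 4.6e-05). Dhrs3, an enzyme that returns retinal to retinol, had 9.90, 39.6 and 44.2 CPM in Tbxt 7 d cells, against 1.27 and 3.76 CPM in FGF Sox2+ cells (3.05 ± 0.54). Cyp26a1, which degrades retinoic acid, was at 0 in Tbxt 7 d cells and at 5.73 and 5.01 CPM in FGF Sox2+ cells, at least 6.15-fold lower. The groups did not overlap in these 3 genes, as in 62.6% of those tested. Binding proteins did not pass, with Crabp1 at 638, 1263 and 1587 CPM in Tbxt 7 d cells and 688 and 1512 CPM in FGF Sox2+ cells. Stra6, the vitamin A transporter, had 16.01, 171 and 184 CPM in Tbxt 7 d cells, against 1.91 and 3.76 CPM in FGF Sox2+ cells (4.45 ± 0.87), and did not pass in a voom fit on inferred reads (adjusted p = 0.163). Rarb was called higher (1.25 ± 0.46) but not without FGF Sox2+ replicate 2 (0.56, adjusted p = 0.364) or Tbxt 7 d replicate 3 (adjusted p = 0.139).

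Hedgehog pathway genes were 5 higher, 0 lower and 5 not past of 10 tested (median log2 fold change 0.61), and the ligands Shh, Ihh and Dhh stayed under 1 CPM in each of the 5 libraries. Gas1, a co-receptor for Hedgehog ligands, had 846, 738 and 956 CPM in Tbxt 7 d cells, against 225 and 228 CPM in FGF Sox2+ cells (1.89 ± 0.16, adjusted p = 1.5e-06). Gli2, the main activator among the Gli factors, had 89.4, 131 and 141 CPM in Tbxt 7 d cells, against 26.8 and 35.1 CPM in FGF Sox2+ cells (1.91 ± 0.24). The receptor and pathway target Ptch1 had 20.4, 22.7 and 25.4 CPM in Tbxt 7 d cells and 26.3 and 28.8 CPM in FGF Sox2+ cells and did not pass. Gas1 and Gli2 were separated between the groups by a wide gap and Ptch1 by a narrow one. The target Gli1 was low and was called higher (2.10 ± 0.76), but not without FGF Sox2+ replicate 2 (0.97, adjusted p = 0.374), Tbxt 7 d replicate 2 (adjusted p = 0.115) or Tbxt 7 d replicate 3 (adjusted p = 0.112).

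Axon guidance genes, many of which also act in mesenchyme, were 15 higher, 5 lower and 9 not past of 29 tested (median log2 fold change 1.19). Nrp2, a co-receptor for semaphorins, had 776, 703 and 772 CPM in Tbxt 7 d cells, against 43.7 and 55.1 CPM in FGF Sox2+ cells (3.91 ± 0.18, adjusted p = 1.3e-08). Robo2, a receptor for Slit proteins, had 317, 475 and 485 CPM in Tbxt 7 d cells, against 14.01 and 25.04 CPM in FGF Sox2+ cells (4.41 ± 0.30). Dcc, the netrin receptor of commissural axons, had 5.82, 3.37 and 3.69 CPM in Tbxt 7 d cells, against 28.9 and 98.9 CPM in FGF Sox2+ cells (-3.40 ± 0.46). The first 2 receptors were higher and Dcc lower in every Tbxt 7 d library. Sema5a, a transmembrane semaphorin, had 205, 454 and 560.3 CPM in Tbxt 7 d cells, against 6.58 and 7.51 CPM in FGF Sox2+ cells (5.54 ± 0.36), and the ligand Slit1 fell (-3.30 ± 0.43). Without Tbxt 7 d replicate 1 the list had 16 higher and 8 lower.

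Genes of developmental timing fell in 8 of 10 tested, rose in 1 and did not pass in 1 (median log2 fold change -1.37). Lin28a, the RNA-binding protein that blocks maturation of let-7 microRNAs, had 0.437, 0.198 and 0.527 CPM in Tbxt 7 d cells, against 145 and 120.4 CPM in FGF Sox2+ cells (-6.59 ± 0.15, adjusted p = 4.9e-11). Trim71, a conserved let-7 target, had 2.62, 7.72 and 8.30 CPM in Tbxt 7 d cells, against 226 and 190.1 CPM in FGF Sox2+ cells (-4.97 ± 0.31). Arid3b, a DNA-binding protein with an ARID domain, had 4.95, 6.14 and 3.95 CPM in Tbxt 7 d cells, against 56.7 and 68.9 CPM in FGF Sox2+ cells (-3.42 ± 0.17). All 3 were lower in each Tbxt 7 d library, with Lin28a close to absent. Hmga2, a chromatin protein that let-7 also targets, was the member that rose, with 654, 545 and 523 CPM in Tbxt 7 d cells, against 226 and 268 CPM in FGF Sox2+ cells (1.214 ± 0.13). Lin28b had 6.11, 21.8 and 19.8 CPM in Tbxt 7 d cells, against 52.2 and 46.3 CPM in FGF Sox2+ cells (-1.74 ± 0.39).

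MicroRNAs themselves were not measured, but transcripts that carry their hairpins were. Of 19 noncoding host transcripts tested, 9 were higher and 3 lower, where 21.1% of all tested genes were higher and 26.5% lower. Dnm3os, the host of miR-199a and miR-214, had 248, 276 and 268 CPM in Tbxt 7 d cells, against 1.27 and 1.88 CPM in FGF Sox2+ cells (6.69 ± 0.25, adjusted p = 3.5e-09). It lies antisense within Dnm3, and without stated strand in the counting their reads cannot be told apart. Mir99ahg, a host of let-7c, had 68.1, 67.2 and 73.7 CPM in Tbxt 7 d cells, against 18.2 and 30.0 CPM in FGF Sox2+ cells (1.53 ± 0.26), and Lncppara, a host of let-7b, had 6.55, 8.02 and 10.7 CPM in Tbxt 7 d cells, against 0.212 and 0 CPM in FGF Sox2+ cells (3.07 ± 0.35). Mir17hg, the host of the miR-17-92 cluster of proliferating cells, had 18.6, 18.7 and 13.69 CPM in Tbxt 7 d cells, against 81.3 and 71.4 CPM in FGF Sox2+ cells (-2.11 ± 0.18). The first 3 hosts were higher and Mir17hg lower in every Tbxt 7 d library. These hosts were chosen after their values had been seen, and the mature sequences (RefSeq, GRCm38.p6) are shown with the seed, bases 2 to 8, in capitals because let-7b and let-7c share 1 seed and miR-17 and miR-20a another.
miR-199a-5p (chr1:162217844-162217866, plus strand): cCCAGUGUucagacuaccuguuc
miR-199a-3p (chr1:162217883-162217904, plus strand): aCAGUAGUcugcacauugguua
miR-214-3p (chr1:162223438-162223459, plus strand): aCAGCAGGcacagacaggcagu
let-7b-5p (chr15:85707325-85707346, plus strand): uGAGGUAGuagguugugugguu
let-7c-5p (chr16:77599672-77599693, plus strand): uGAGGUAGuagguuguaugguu
miR-17-5p (chr14:115043684-115043706, plus strand): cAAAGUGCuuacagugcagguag
miR-20a-5p (chr14:115044183-115044205, plus strand): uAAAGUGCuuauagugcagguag

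Imprinted genes, which are read from a single parental allele and many of which tune fetal growth, were 12 higher, 4 lower and 1 not past of 17 tested (median log2 fold change 0.98). Meg3, a maternally expressed noncoding RNA, had 1193, 1627 and 1656 CPM in Tbxt 7 d cells, against 395 and 275 CPM in FGF Sox2+ cells (2.16 ± 0.23, adjusted p = 1.0e-05). Dlk1, a paternally expressed membrane protein of the same locus, had 185, 60.0 and 96.7 CPM in Tbxt 7 d cells, against 11.9 and 11.3 CPM in FGF Sox2+ cells (3.04 ± 0.37). Mest, a paternally expressed gene of mesoderm, had 495, 538 and 442 CPM in Tbxt 7 d cells, against 1449 and 2086 CPM in FGF Sox2+ cells (-1.82 ± 0.17). Both genes of the Dlk1-Meg3 locus were higher and Mest lower in every Tbxt 7 d library. Cdkn1c, a cell cycle inhibitor, had 380.0, 382 and 419.8 CPM in Tbxt 7 d cells, against 120.2 and 165 CPM in FGF Sox2+ cells (1.47 ± 0.17). Igf2, the fetal growth factor, had 967, 3090.1 and 3220.3 CPM in Tbxt 7 d cells, against 611 and 364 CPM in FGF Sox2+ cells (2.17 ± 0.45), though the annotation holds a transcript that overlaps it and could share its reads.

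Proliferation genes were lower in Tbxt 7 d cells in 18 of 19 tested, with 0 higher and 1 not past (median log2 fold change -1.30). Ccnb1, the cyclin of mitotic entry, had 85.8, 93.8 and 101 CPM in Tbxt 7 d cells, against 349 and 273 CPM in FGF Sox2+ cells (-1.71 ± 0.14, adjusted p = 1.2e-06). Pcna, the sliding clamp of DNA replication, had 183, 141 and 110.3 CPM in Tbxt 7 d cells, against 449 and 418 CPM in FGF Sox2+ cells (-1.603 ± 0.18). Mki67 had 56.5, 31.5 and 44.4 CPM in Tbxt 7 d cells and 80.5 and 42.2 CPM in FGF Sox2+ cells and did not pass (-0.43 ± 0.31). The log2 fold changes of the 18 that fell ran from -1.71 in Ccnb1 to -0.44 in Top2a. Among 14 p53 targets and cell cycle inhibitors, 0 were higher, 7 lower and 7 not past. Cdkn1a (p21) had 254, 152 and 95.9 CPM in Tbxt 7 d cells and 118 and 189 CPM in FGF Sox2+ cells (0.05 ± 0.32), and Ccng1 had 240.2, 143 and 122 CPM in Tbxt 7 d cells, against 482 and 458 CPM in FGF Sox2+ cells (-1.54 ± 0.25).

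Glucose transporters fell while most glycolytic enzymes did not pass. Slc2a3 (GLUT3), the high-affinity glucose transporter of neurons and embryonic cells, had 18.1, 4.75 and 7.11 CPM in Tbxt 7 d cells, against 418 and 413 CPM in FGF Sox2+ cells (-5.44 ± 0.40, adjusted p = 2.1e-06). Slc2a1 (GLUT1) had 47.8, 49.9 and 70.8 CPM in Tbxt 7 d cells, against 497 and 349 CPM in FGF Sox2+ cells (-2.89 ± 0.21), and hexokinase Hk2 had 27.1, 17.2 and 19.8 CPM in Tbxt 7 d cells, against 109.6 and 67.6 CPM in FGF Sox2+ cells (-1.99 ± 0.25). These 3 genes were lower in every Tbxt 7 d library. Of 18 genes tested, 1 was higher, 4 lower and 13 not past. Leaving out Tbxt 7 d replicate 1, which held the lowest level of most glycolytic enzymes, 10 were higher and 4 lower, and without FGF Sox2+ replicate 1 the counts were 2 and 4. Ldha, for example, had 263, 518 and 596 CPM in Tbxt 7 d cells and 556 and 312 CPM in FGF Sox2+ cells (0.06 ± 0.32).

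Immediate early and stress genes were 6 higher, 4 lower and 4 not past of 14 tested. Fosl2, an AP-1 factor, had 67.6, 136 and 163 CPM in Tbxt 7 d cells, against 7.64 and 5.01 CPM in FGF Sox2+ cells (4.002 ± 0.33, adjusted p = 1.2e-06). Egr2 (Krox20), also a hindbrain and crest factor, had 2.91, 0.198 and 0 CPM in Tbxt 7 d cells, against 23.99 and 51.3 CPM in FGF Sox2+ cells (-4.43 ± 0.53). Fos had 107, 8.71 and 7.64 CPM in Tbxt 7 d cells and 14.4 and 16.3 CPM in FGF Sox2+ cells and did not pass. Replicate 1 was again the high library of its group for Fos, and also for Egr1, with 278, 29.3 and 19.2 CPM in Tbxt 7 d cells and 21.2 and 15.02 CPM in FGF Sox2+ cells. The counts were 6 higher and 6 lower without Tbxt 7 d replicate 1, 5 and 2 without FGF Sox2+ replicate 1, and 4 and 2 without FGF Sox2+ replicate 2. Of 12 mitochondrial transcripts 4 were higher and 1 lower, the largest log2 change that passed being 0.80 ± 0.27 in mt-Rnr2. Leaving out Tbxt 7 d replicate 1 gave 3 calls, Tbxt 7 d replicate 2 or FGF Sox2+ replicate 2 gave 1, and FGF Sox2+ replicate 1 gave 0.

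Markers of other cell types were examined as whole lists. Of 12 pluripotency markers 11 were tested, with 1 higher, 8 lower and 2 not past. Zfp42 (Rex1), a marker of embryonic stem cells, had 0, 0.198 and 0.395 CPM in Tbxt 7 d cells, against 71.3 and 18.8 CPM in FGF Sox2+ cells (-4.99 ± 0.43), and Pou5f1 (Oct4) had 0.728, 0.495 and 2.11 CPM in Tbxt 7 d cells, against 30.1 and 10.02 CPM in FGF Sox2+ cells (-3.21 ± 0.41). Both were lower in every Tbxt 7 d library, and replicate 1 was the higher of the FGF Sox2+ libraries. Klf4, which stromal cells also express, was the member that rose (2.30 ± 0.43). Neural crest markers gave 0 higher, 4 lower and 3 not past of 7 tested, with a summed level of 33.7 to 49.4 CPM in Tbxt 7 d cells and 93.6 to 200.3 CPM in FGF Sox2+ cells, and the defining marker Sox10 was at 0.582 CPM or less in each library. The part of these cell types in the results was not tested.

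The remaining marker lists were mostly below the filter. Endothelial markers had 3 of 12 tested, all lower, with a summed level of 13.8 to 26.6 CPM in Tbxt 7 d cells and 33.8 to 40.8 CPM in FGF Sox2+ cells, and with Pecam1 and Cdh5 under 3 CPM throughout. All 3 were called lower without Tbxt 7 d replicate 1, 2 without FGF Sox2+ replicate 2, and 1 without FGF Sox2+ replicate 1, Tbxt 7 d replicate 2 or Tbxt 7 d replicate 3. Of 12 blood markers, 4 were at 0 in all 5 libraries and Runx1 alone was tested, with a sum of 16.9 to 139 CPM in Tbxt 7 d cells and 3.76 to 4.67 CPM in FGF Sox2+ cells. Mef2c, a factor of muscle and limb mesenchyme, was the cardiac marker that rose (2.75 ± 0.24), while Tnnt2, Myh6 and Myl7 were at 0 in Tbxt 7 d cells; the list summed to 32.0 to 44.4 CPM in Tbxt 7 d cells and 5.01 to 15.3 CPM in FGF Sox2+ cells. In the skeletal muscle list 2 genes were tested, both lower, with Myod1 and Myog at 0 in all 5 libraries and a sum of 1.16 to 5.14 CPM in Tbxt 7 d cells and 19.2 to 20.6 CPM in FGF Sox2+ cells. Cartilage markers gave 0 higher, 1 lower and 4 not past, with Acan at 0 in Tbxt 7 d cells, and 3 lower without Tbxt 7 d replicate 1. Their sum was 46.4 to 206 CPM in Tbxt 7 d cells and 131 to 205 CPM in FGF Sox2+ cells. Endoderm markers gave 3 lower of 5 tested (2 without FGF Sox2+ replicate 2), with a summed level of 1.19 to 1.75 CPM in Tbxt 7 d cells and 9.55 to 13.8 CPM in FGF Sox2+ cells. Kidney and intermediate mesoderm markers gave 2 higher and 1 lower of 6 tested, with Pax2 and Pax8 at 0 in Tbxt 7 d cells and a sum of 116 to 200.02 CPM in Tbxt 7 d cells and 78.9 to 91.9 CPM in FGF Sox2+ cells. Those counts were 2 and 4 without Tbxt 7 d replicate 1 and 1 and 0 without FGF Sox2+ replicate 2. Glial markers gave 1 higher (Pdgfra) and 1 lower (Mbp) of 2 tested, with a sum of 91.3 to 144 CPM in Tbxt 7 d cells and 21.4 to 47.6 CPM in FGF Sox2+ cells.

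Because source, gate and medium differ together, the 3 single Sox2-derived libraries at 7 d, each of which shares some of these with an end point, were placed between the end points gene by gene. On this scale 0 is the mean of FGF Sox2+ cells and 1 the mean of Tbxt 7 d cells in log2(CPM + 1), and no test was made. Over the 6161 called genes the median position was 0.44 for double-negative cells in FGF/CHIR, 0.17 for double-negative cells in FGF and 0.28 for Sox2+ cells in FGF/CHIR. The library that shares both the gate and the medium with Tbxt 7 d cells, but not the source, was therefore nearest to them, and lay nearer to them than to FGF Sox2+ cells in 2678 of the 6161 genes. Gene groups differed in this placement. Called WNT targets stood at 0.97 in FGF/CHIR double-negative cells, -0.32 in FGF double-negative cells and 0.91 in FGF/CHIR Sox2+ cells, and Hox paralogs 10 to 13 at 1.01, 0.14 and 1.05. By these medians both FGF/CHIR libraries were near the Tbxt 7 d end. All 6 called genes of Hox paralogs 10 to 13 were nearer to that end in both libraries. Of the 10 called WNT targets, 7 were nearer to it in double-negative cells and 6 in Sox2+ cells. The quartiles of the WNT targets in FGF/CHIR Sox2+ cells were -0.19 and 1.43. Earlier cells stood midway for WNT targets, at 0.51 in NMPs, 0.52 in Sox2 48 h cells and 0.60 in Tbxt 48 h cells. Mesenchymal transcription factors stood at 0.71 in FGF/CHIR double-negative cells, 0.07 in FGF double-negative cells and 0.26 in FGF/CHIR Sox2+ cells.

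Other groups were placed differently. Called epithelial genes stood at 0.08 in FGF/CHIR double-negative cells, -0.25 in FGF double-negative cells and 0.42 in FGF/CHIR Sox2+ cells, so that all 3 Sox2-derived libraries were nearer to the FGF Sox2+ end. Cdh1, for example, had 101, 141 and 7.40 CPM in those libraries in the same order. Neural progenitor transcription factors stood at 0.98, 0.65 and 0.79 in that order, and neuronal cytoskeleton genes at 0.99, 0.55 and 0.95. Both groups were nearer to the Tbxt 7 d end in all 3 libraries, the Sox2+ one included. Earlier cells of the series stood there too in most cases. NMPs stood at 0.77 and 0.74, Tbxt 48 h cells at 0.90 and 1.01, and Sox2 48 h cells at 0.46 and 0.97. A high position in these groups therefore shows levels unlike those of FGF Sox2+ cells, and not a likeness to mesenchymal cells. Proneural and neuronal transcription factors stood at 0.92, 0.80 and 0.37, and in FGF/CHIR Sox2+ cells 3 of the 7 called genes were nearer to the Tbxt 7 d end. Basement membrane genes stood at 0.26, 1.12 and 0.03, with quartiles of 0.38 and 2.93 in FGF double-negative cells. The summed level of the 16 listed basement membrane genes was 2025, 10383 and 554 CPM in that order, against 853 to 979 CPM in Tbxt 7 d cells. The median of 1.12 is therefore not a match to the Tbxt 7 d level. Lin28a had 15.2, 119.7 and 117 CPM, above its level in Tbxt 7 d cells in all 3. The 2 double-negative libraries also held markers of other cell types: summed endoderm markers reached 184 CPM in FGF/CHIR double-negative cells and 549 CPM in FGF double-negative cells, against 5.14 CPM in FGF/CHIR Sox2+ cells, and summed pluripotency markers 418, 553 and 22.4 CPM in the same order. Their part in these positions was not tested.

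To ask which differences were already present 48 h after the NMP sort, Tbxt 48 h cells were compared with Sox2 48 h cells (2 libraries each, both in FGF/CHIR, none of them among the 7 d libraries). In that comparison 265 genes (2.05%) were higher and 240 (1.85%) lower in Tbxt 48 h cells. Of the genes higher at 7 d, 101 were higher at 48 h, which is 3.70% of the 7 d list and 38.1% of the 48 h list, where 21.1% of all tested genes were higher at 7 d. Of the genes lower at 7 d, 120 were lower at 48 h, which is 3.50% of the 7 d list and 50.0% of the 48 h list, where 26.5% of all tested genes were lower at 7 d. Genes called in opposite directions numbered 117. Of these, 49 were higher at 7 d and lower at 48 h, which is 1.80% of the 7 d list and 20.4% of the 48 h list, and 68 were lower at 7 d and higher at 48 h, which is 1.98% and 25.7%. Both shares of the 48 h lists were near those of all tested genes (21.1% higher and 26.5% lower at 7 d), so the number of opposite calls is not a result in itself. The gene lists and reporters hold 19 of the 117, given here as a description. Besides Tbxt, these were Notch and segmentation genes such as Dll1, Dll3, Lfng and Nrarp and ligands and enzymes such as Wnt3a, Fgf8 and Cyp26a1, all of them higher at 48 h and lower at 7 d in the Tbxt-derived cells. Gli2, Sema3a, Tgfbi, Sparc, Id3 and Jund went the other way. The medium differs between the groups at 7 d and not at 48 h. Without Sox2 48 h replicate 2 or Tbxt 48 h replicate 2, the 505 genes called at 48 h fell to 147 and 132.

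**Figure D5:**
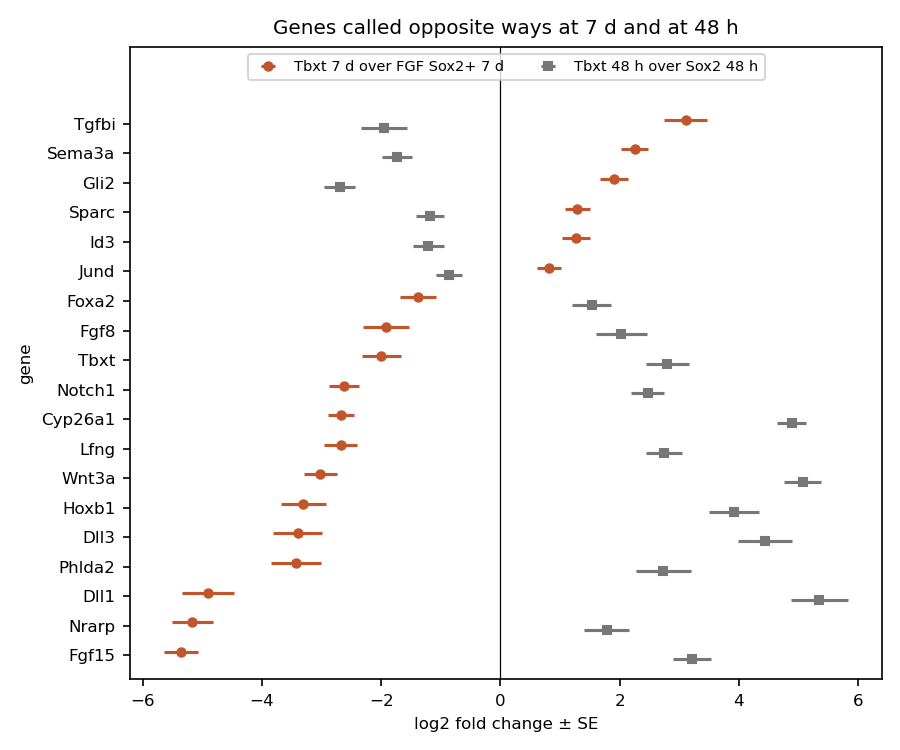
Log2 fold change ± SE of the 19 listed genes called in opposite directions, with circles for Tbxt 7 d over FGF Sox2+ cells and squares for Tbxt 48 h over Sox2 48 h cells. Dll1 has the widest gap between the 2 contrasts, with -4.91 at 7 d and 5.35 at 48 h, and Jund the narrowest, with 0.82 and -0.86.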

How the data were processed

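The authors deposited a single table of CPM values for 15 libraries, over 78409 rows. Per the submitters' processing notes, STAR 2.7, SAMtools 1.21 and the build GRCm39 were used; the annotation, the counting step, its strand and any use of the molecular identifiers are not stated in the labels or notes. Per the labels' protocols, RNA was extracted on beads and captured with oligo-dT primers. Rows without a gene name (21909) and spike-in rows (92) were left out, and rows that share a symbol were summed, giving 56092 genes.

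Values were tested as log2(CPM + 1) with limma 3.58.1 in R 4.3.3 (limma-trend, robust, two-sided) in 1 fit of all 15 libraries (8 groups, residual degrees of freedom 7). Genes with at least 5 CPM in 2 libraries were tested, with Benjamini-Hochberg adjustment and a threshold of 0.05. The fold change on this scale understates that of low genes. Depth was inferred from the most common smallest value. Of nonzero values, 71.1 to 78.7% were whole multiples of it (within 0.01 reads), so whole reads were not recovered. No count test was therefore used as the main test. The voom fit on inferred reads is an alternative that rests on approximate reads. Folds against a group at 0 set the mean of the other group over a floor of 3 reads per library, so they bound the mean and not each library.

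Named genes are Sox2 and Tbxt, the 10 largest called changes each way without overlap and with at least 20 CPM, up to 6 called and 2 other members of each of 45 lists (685 entries), and all marker lists; further members are given as counts or as values that show a group's spread. The libraries, lists and genes were chosen with earlier results of these data known, so no list is independent evidence. The fit was tested on simulated data. Alternatives comprised pseudocounts, filters, scalings, array weights, voom on inferred reads, the 2 groups alone, a 2-fold minimum, a replicate block and leaving out each library. Further fits without single libraries for each list, for the difference between contrasts and with crossed numbers were added after the data had been seen. Some listed genes were counted but are not reported by name here. Python 3.11.15, numpy 2.4.6, pandas 2.3.3 and matplotlib 3.10.9 were used.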

Additional observations from a re-analysis of the deposited data

Results flagged for a closer look

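In 19 genes the difference between Tbxt-derived and Sox2-derived cells had 1 direction at 7 d and the opposite direction at 48 h, both called by limma with adjustment over all tested genes. They were chosen for those opposite calls, so a test of the difference between the 2 contrasts was all but certain to pass and adds no support. The differences (7 d minus 48 h, log2 scale) are given as a description, and the 117 opposite calls over all tested genes are near the number that the share of genes called at 7 d gives. The medium differs between the groups at 7 d and not at 48 h. The gate of the Tbxt-derived cells also changes, from the Tbxt reporter at 48 h to double negative at 7 d. For Tbxt itself the gate therefore selected on the reporter of the gene compared. The parts of medium and gate in the other genes were not tested.

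Of the 19, Dll1 had the widest gap. It differed by -10.25, with a mean of 0.996 CPM in Tbxt 7 d cells and 57.3 CPM in FGF Sox2+ cells, against 242 and 245 CPM in Tbxt 48 h cells and 6.06 and 4.11 CPM in Sox2 48 h cells. Dll3 differed by -7.83, Nrarp by -6.96, Lfng by -5.42 and Notch1 by -5.09. Among signalling genes the difference was -8.56 for Fgf15, -8.09 for Wnt3a, -7.55 for Cyp26a1 and -3.94 for Fgf8. Fgf8 had 123 and 52.5 CPM in Tbxt 48 h cells and 24.2 and 14.9 CPM in Sox2 48 h cells, against 0.291, 0.396 and 0.527 CPM in Tbxt 7 d cells and 7.01 and 2.504 CPM in FGF Sox2+ cells. Hoxb1 differed by -7.22, Phlda2 by -6.16, Tbxt by -4.79 and Foxa2 by -2.92.

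Genes with the opposite pattern, higher at 7 d and lower at 48 h in the Tbxt-derived cells, were Tgfbi (5.06), Gli2 (4.61), Sema3a (3.99), Id3 (2.48), Sparc (2.48) and Jund (1.68). Gli2 had a mean of 120.2 CPM in Tbxt 7 d cells and 30.9 CPM in FGF Sox2+ cells, and had 2.43 and 1.35 CPM in Tbxt 48 h cells, against 17.4 and 17.4 CPM in Sox2 48 h cells.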

How the results depend on the processing

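The 6161 genes called between the 7 d end points became 4614 to 6934 under other pseudocounts, filters, scalings, weights, a voom fit on inferred reads and a fit of the 2 groups alone, 4953 to 6521 when each library was left out in turn, and 1282 when a change of more than 2-fold had to be shown. That last test ended the calls of 75 of the 302 named genes. The 505 genes called at 48 h became 1221 with array weights, 1051 in a fit of those groups alone and 57 with a 2-fold minimum, and 132 to 492 without single libraries. The cause of these shifts was not tested. Without single libraries the log2 fold change of Hes1 ran from -0.48 to 0.47 and that of Evx1 from -0.68 to 0.85, in these fits negative only without Tbxt 7 d replicate 1. In a fit of the 2 groups alone 24 named genes lost their call, among them Nes, Axin2, Dusp6, Notum, Nkd1, Gli1 and Mkx, and under voom 28, among them Notum, Axin2, Gli1, Rarb, Mkx, Etv4, Fgf8 and mt-Rnr2. Deviations from the group means correlated by 0.048 and -0.033 between 7 d libraries of the same number. In a group of 2 libraries such deviations mirror each other, so these values cannot tell whether libraries shared a culture. With the number as a replicate block 5394 genes were called at 7 d and 354 at 48 h. Dusp6, Notum, Rarb, Gli1 and Mkx were among 9 named genes that lost their 7 d call. At 48 h the correlation was -0.167, and with the Sox2 48 h numbers crossed the replicate block called 430. Median-of-ratios scaling kept the direction of nearly all named genes, with 1 weaker and 2 stronger of 302. The placement of the 3 single libraries moved little (0.44 to 0.46, 0.17 to 0.19 and 0.27 to 0.29). The depth of FGF Sox2+ replicate 2, 0.799 M reads, limits all statements on genes below 3.76 CPM in that group.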
